A study of Mus musculus with 2 samples.

Results

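The alpha and beta globin genes of the mouse were followed in total RNA sequencing of G1E, an immortalised line of erythroid progenitors labelled as lacking Gata1. The members were the 10 genes whose identifiers in both gene tables map to Hba-a1, Hba-a2, Hba-x, Hbq1a and Hbq1b on chromosome 11 and to Hbb-bs, Hbb-bt, Hbb-bh1, Hbb-bh2 and Hbb-y on chromosome 7. They were 10 of 43346 mouse genes and 10 of 21461 nuclear protein-coding genes in the tables, and all 10 were found. The study holds 2 libraries, which the labels give as biological replicate 2 and biological replicate 1 of the same untreated line (strain C57BL/6J, male, postnatal, age 0 day), each from 1 ng of RNA longer than 200 nucleotides with spike-in transcripts added. There is no control line and no treatment. All cells share the labelled Gata1 defect and come from a line grown in culture, so what follows is a description of this line and a comparison of its libraries with each other. The mouse reference carries Hbb-bs and Hbb-bt as its adult beta genes, and Hbb-b1 and Hbb-b2, the adult beta genes of another common haplotype, were not analysed here. Which haplotype these cells carry was not checked, and reads from another haplotype would be counted under the reference genes.

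Haemoglobin is a tetramer of alpha-type and beta-type chains, each of which holds a haem group. In the mouse the alpha-type genes lie in one cluster and the beta-type genes in another, and both are driven in erythroid cells by distal enhancers bound by GATA1 with TAL1 and by promoters bound by factors such as GATA1 and KLF1. Hba-a1 and Hba-a2 encode the adult alpha chain and Hba-x the embryonic zeta chain, while Hbq1a and Hbq1b are theta genes of lower known expression. Hbb-bs and Hbb-bt encode adult beta chains, and Hbb-y and Hbb-bh1 encode embryonic chains. Globin transcripts are known to accumulate late, when a progenitor matures into a red cell, and G1E is known as a line held before that step for want of GATA1.

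The adult genes of each cluster are near copies of each other, which decides what the counts can say about a single gene. In the GENCODE M21 transcripts the coding sequences of Hba-a1 and Hba-a2 were identical at 428 of 429 bases, and those of Hbb-bs and Hbb-bt at 443 of 444. The 41 coding bases around each of these single differences are shown 5′ to 3′ on the coding strand, since they hold the whole coding difference within each pair, with the base that differs in capitals (Hba-a1 at chr11:32284323-32284363 and Hba-a2 at chr11:32297140-32297180, plus strand; Hbb-bs at chr7:103826672-103826712 and Hbb-bt at chr7:103812663-103812703, minus strand; GRCm38).
Hba-a1: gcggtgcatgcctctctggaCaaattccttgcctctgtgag
Hba-a2: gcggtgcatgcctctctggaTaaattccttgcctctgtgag
Hbb-bs: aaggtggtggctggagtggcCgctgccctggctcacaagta
Hbb-bt: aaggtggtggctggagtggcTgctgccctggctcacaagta
Counted from 1 at the A of the start codon, the difference is C381T from Hba-a1 to Hba-a2 and C417T from Hbb-bs to Hbb-bt. Of all stretches of 50 nt in the annotated transcript of Hba-a2, 13.1% were found in no other globin gene, and 25.5% of stretches of 100 nt were. The shares were 32.5% and 43.5% for the 699-nt transcript of Hba-a1, and 41.7% and 45.2% for Hbb-bt. For the 628-nt transcript of Hbb-bs they were 34.2% and 37.4%. They were 100% at both lengths for Hba-x, Hbb-y, Hbb-bh1 and Hbb-bh2. The theta genes lay between, with 60.2% of stretches of 50 nt in the 562-nt transcript of Hbq1b and 63.2% in Hbq1a. All these shares are those of M21 models. The deposited estimates, for which GENCODE M4 is named, used models of other lengths for some genes, Hbb-bs among them. The authors' estimates divided shared reads by a model, and in both libraries the summed estimates of each adult pair were whole numbers although the single genes' were not. Each adult pair is therefore given as a sum as well as by gene.

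The promoters of the expressed members are shown because the adult genes, and no others of the 9 members with a RefSeq promoter, held all 4 of the short motifs searched. Each sequence is the 250 bases before the RefSeq transcription start (RefSeq, GRCm38.p6), 5′ to 3′ in the direction of the gene, with matches on either strand in capitals to GATAA (the core that GATA factors bind), CACCC (bound by KLF factors), CCAAT and TATAA. The windows are chr11:32296242-32296491 for Hba-a2 and chr11:32286714-32286963 for Hbq1b on the plus strand, and chr7:103827929-103828178 for Hbb-bs and chr7:103813924-103814173 for Hbb-bt on the minus strand.
Hba-a2: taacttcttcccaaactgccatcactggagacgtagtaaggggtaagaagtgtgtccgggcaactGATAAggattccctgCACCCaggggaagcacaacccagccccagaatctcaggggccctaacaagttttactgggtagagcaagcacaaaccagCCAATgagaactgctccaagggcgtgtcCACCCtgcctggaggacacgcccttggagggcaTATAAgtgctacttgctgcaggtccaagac
Hbq1b: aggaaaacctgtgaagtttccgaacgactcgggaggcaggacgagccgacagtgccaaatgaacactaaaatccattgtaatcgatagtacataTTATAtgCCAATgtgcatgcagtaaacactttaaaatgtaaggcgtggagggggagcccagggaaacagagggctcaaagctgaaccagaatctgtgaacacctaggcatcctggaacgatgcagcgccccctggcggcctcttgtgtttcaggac
Hbb-bs: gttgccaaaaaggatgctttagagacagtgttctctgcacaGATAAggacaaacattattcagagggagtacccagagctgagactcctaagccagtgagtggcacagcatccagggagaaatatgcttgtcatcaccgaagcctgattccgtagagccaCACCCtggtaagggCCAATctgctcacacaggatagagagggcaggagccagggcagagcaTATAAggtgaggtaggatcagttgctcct
Hbb-bt: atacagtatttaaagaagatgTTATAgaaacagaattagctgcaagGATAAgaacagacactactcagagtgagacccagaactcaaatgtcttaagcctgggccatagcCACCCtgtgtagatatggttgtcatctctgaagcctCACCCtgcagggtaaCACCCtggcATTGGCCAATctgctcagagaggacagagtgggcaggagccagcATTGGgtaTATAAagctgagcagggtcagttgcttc
The Hba-a1 window is not printed because it matched that of Hba-a2 in 247 of 247 aligned bases. The windows of Hbb-bs and Hbb-bt aligned over 243 bases with 73.3% identity, well below the identity of their coding sequences. In all 4 adult genes the TATAA nearest the start began 27 to 30 bases before it, a CCAAT began 75 to 91 bases before it, and a GATAA began 182 to 209 bases before it. In Hbb-bt an inverted and a forward CCAAT match lay side by side. GATAA was found in 7 of 9 members (22.6% of 32851 RefSeq promoters of the same length), CACCC in 6 of 9 (52.0%), CCAAT in 7 of 9 (33.8%) and TATAA in 6 of 9 (22.8%). All 4 motifs were found together in 4 of 9 members, against 0.968% of all promoters. These shares are a description and no test of enrichment. Globin promoters are known to be bound by GATA1 and KLF1, so the choice of motifs favoured them. The windows of Hba-a1 and Hba-a2 are the same over all aligned bases, so the 4 members are not 4 separate observations. In the printed Hbq1b window neither GATAA nor CACCC was found, and its TATAA match lay on the other strand, 152 to 156 bases before the start. Of the embryonic genes, which are not printed and were not detected, Hba-x lacked only CCAAT and Hbb-y lacked only TATAA. Most of these motifs were thus also found in members without detected RNA, and fewer of them in Hbq1b, which was detected. Letters alone do not show that a factor binds. Part of these windows is transcribed in GENCODE. There the 699-nt transcript of Hba-a1, the 407-nt transcript of Hbb-bs and the 703-nt transcript of Hbb-bt begin upstream of the RefSeq start.

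Replicate 2 held 40597614 estimated counts, with 7669565 (18.9%) on nuclear protein-coding genes, and replicate 1 held 31649878, with 8513094 (26.9%) on these genes. Ribosomal RNA filled most of the rest, with Gm42418, which overlaps a ribosomal RNA repeat, and the mitochondrial ribosomal RNAs at 40.3% and 35.4% of replicate 2 and at 52.6% and 14.6% of replicate 1. Spike-in transcripts took 10351 counts in replicate 2, against 514 in replicate 1. With 0 counts seen, up to 3 counts are allowed, or 0.0739 and 0.0948 CPM in replicates 2 and 1. Floors and intervals here take in counting error alone. Gata1 had 649 estimated counts (12.5 TPM) in replicate 2 and 798 (22.0 TPM) in replicate 1, and a gene count does not show whether its product is functional. Of the markers, 6 of 6 erythroid and 3 of 3 progenitor genes reached 1 TPM in both libraries, as did 2 of 4 of megakaryocytes (Pf4 and Itga2b) and 1 of 3 of mast cells (Cpa3). None of the 6 granulocyte and macrophage, 3 lymphocyte and 4 fibroblast and endothelial markers did. Summed over each list, the level was 280 TPM in replicate 2 and 272 TPM in replicate 1 for erythroid and 191 and 307 TPM for progenitor markers. It was 13.6 and 21.2 TPM for megakaryocytes, 24.95 and 51.7 TPM for mast cells, and 0.32 and 0.80 TPM for granulocytes and macrophages. For fibroblasts and endothelium it was 0.01 and 0.05 TPM, and for lymphocytes 0 in both. These sums are not scaled between the libraries, and over genes tested the median TPM ratio of replicate 2 over replicate 1 was 0.646.

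The 4 adult genes carried nearly all globin RNA in both libraries, and their level differed strongly between the libraries. Hba-a2 (ENSMUSG00000069917.7, chr11:32296489-32297298) had 568 TPM in replicate 2 and 56.0 TPM in replicate 1 (312 ± 362 TPM, SD, n = 2). Hba-a1 (ENSMUSG00000069919.7, chr11:32283511-32284465) had 303 TPM in replicate 2 and 48.03 TPM in replicate 1 (176 ± 180 TPM). In TPM, both alpha genes were thus high in replicate 2 and low in replicate 1. Hbb-bs (ENSMUSG00000052305.5, chr7:103826534-103828096) had 408 TPM in replicate 2 and 37.0 TPM in replicate 1 (222 ± 262 TPM). Hbb-bt (ENSMUSG00000073940.3, chr7:103812524-103813996) was the lowest of the adult genes, with 109 TPM in replicate 2 and 5.81 TPM in replicate 1 (57.2 ± 72.7 TPM). For each of these genes the SD exceeded the mean, replicate 2 was the high library, and the deposited credibility intervals of TPM in the libraries did not overlap. The share of all genes with intervals that do not overlap was not counted. TPM is not scaled between the libraries, and its median ratio of replicate 2 over replicate 1 was 0.646 over genes tested. Among nuclear protein-coding genes ordered by TPM, Hba-a2 stood at position 11 in replicate 2 and 583 in replicate 1, and Hbb-bt at 147 and 5542.

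The order of levels was not the same in the libraries. In replicate 2 it ran Hba-a2, Hbb-bs, Hba-a1, Hbb-bt, with credibility intervals of 534 to 572, 380 to 415, 282 to 309 and 95.5 to 114 TPM that did not overlap between neighbours. In replicate 1 it ran Hba-a2, Hba-a1, Hbb-bs, Hbb-bt. There the intervals of Hba-a2 (47.5 to 61.6 TPM) and Hba-a1 (40.8 to 52.5 TPM) overlapped, as did those of Hba-a1 and Hbb-bs (30.7 to 41.3 TPM), while Hbb-bt (3.31 to 7.98 TPM) stood below them.

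Of the theta genes, Hbq1b alone was detected, at a low level in both libraries. Hbq1b (ENSMUSG00000073063.3, chr11:32286965-32287784) lies between Hba-a1 and Hba-a2 and had 1.55 TPM from 20 counts in replicate 2 and 1.89 TPM from 18 counts in replicate 1 (1.72 ± 0.24 TPM, SD, n = 2). Its credibility intervals overlapped (0.94 to 2.27 and 1.10 to 2.80 TPM in replicates 2 and 1). Hbq1a, whose coding sequence is 93.8% identical to that of Hbq1b, was at 0 counts in both libraries.

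RNA of the embryonic genes was not detectable at this depth in replicate 1 and was 3 counts of 1 gene in replicate 2. Hbb-bh1, a beta-type gene of the embryonic red cell, had 3 counts (0.21 TPM, interval 0.049 to 0.541) in replicate 2 and 0 in replicate 1. Hba-x, the zeta gene at the start of the alpha cluster, Hbb-y, the epsilon-type gene at the end of the beta cluster opposite Hbb-bt, and Hbb-bh2 were at 0 counts in both. For the 4 members at 0 in both libraries the upper credibility bounds of TPM reached at most 0.308 in replicate 2 and 0.414 in replicate 1. In all, 5 of 10 members were detected (at least 1 TPM in both libraries), 4 were at 0 in both, and Hbb-bh1 was at 0 in replicate 1.

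**Figure D1:**
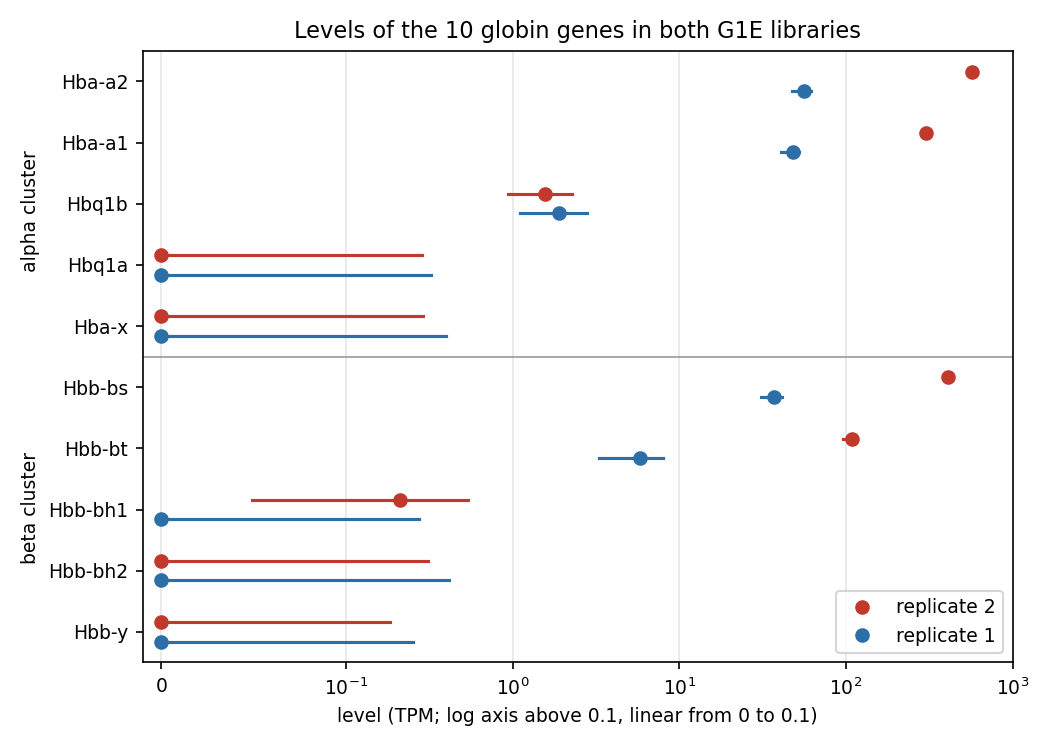
Level of each globin gene in TPM (log axis above 0.1, linear below) in replicate 2 (red, upper point of each row) and replicate 1 (blue, lower point), with the deposited credibility intervals as bars. Hba-a1, Hba-a2, Hbb-bs and Hbb-bt sit at 109 to 568 TPM in replicate 2 and at 5.81 to 56.0 TPM in replicate 1, Hbq1b at 1.55 and 1.89 TPM, and the other members at 0 to 0.21 TPM.

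Both adult pairs were higher in replicate 2 relative to the bulk of genes. The alpha pair had 11207 counts (871 TPM) in replicate 2, against 1050 (104 TPM) in replicate 1, with a mean of 488 ± 543 TPM (SD, n = 2). The beta pair had 6931 counts (516 TPM) in replicate 2, against 374 (42.8 TPM) in replicate 1, with a mean of 280 ± 335 TPM. After TMM scaling the median log2 ratio of all 11902 tested genes was 0.00. The alpha pair was then 11.96-fold higher in replicate 2 (exact 95% interval 11.2 to 12.8) and the beta pair 20.8-fold higher (18.7 to 23.1). Scaling to the spike-in total instead turned both ratios below 1 (0.530 and 0.920). The exact binomial p was at the bound of computer precision in both (adjusted p at most 5.17e-298, Benjamini-Hochberg over all genes tested). That test covers counting error only, and amplification from 1 ng of RNA can exceed it. With a negative binomial exact test in edgeR, at a common dispersion taken from the same libraries over all genes (biological coefficient of variation 26.1%), the adjusted p was 2.91e-07 for the alpha pair and 5.28e-10 for the beta pair. With 1 library on each side, neither test rests on a replicate of the difference. In bulk RNA, a smaller number of globin-rich cells and less globin RNA per cell cannot be told apart.

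Gene by gene, 4 of the 5 members with at least 10 counts over both libraries were called higher in replicate 2 and 0 higher in replicate 1, while the other 5 members were too low to test. A call needed a ratio of 2-fold or more with an adjusted p under 0.05. Over all genes tested 5.08% were called higher in replicate 2 and 2.22% higher in replicate 1, and of the nuclear protein-coding genes 4.26% were called higher in replicate 2. The ratio of replicate 2 over replicate 1 was 15.4 for Hba-a2 (exact 95% interval 14.1 to 16.9), 8.54 for Hba-a1 (7.79 to 9.37), 18.9 for Hbb-bs (16.8 to 21.3) and 28.4 for Hbb-bt (22.5 to 36.4). The intervals of Hba-a1 and Hba-a2 did not overlap, and neither did those of Hbb-bs and Hbb-bt, which lay close to each other. All of them take no account of how shared reads were divided. In replicate 1 that division gave a posterior SD of 26.7 counts for Hba-a1 (527 counts) and Hba-a2 (523 counts). For Hbb-bt it was 13.2 on 72.7 counts, so the intervals of Hbb-bs and Hbb-bt do not separate these genes. Hbq1b had a ratio of 1.25 (0.63 to 2.50) with an adjusted p of 0.67 in the exact binomial test and was not called. Its interval reaches past the 2-fold limit and lies below the intervals of all 4 adult genes. With spike-in scaling the ratios of Hba-a1 (0.378), Hba-a2 (0.683), Hbq1b (0.055) and Hbb-bs (0.838) fell below 1 and that of Hbb-bt was 1.26, and Hba-a1 and Hbq1b were then called higher in replicate 1.

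The direction given by spike-in scaling was that of almost the whole table. Scaled to the spike-in total, the median log2 ratio of all tested genes was -4.49 and 11609 of 11902 genes were called higher in replicate 1. Scaled to total counts it was -0.52. A scaling moves all genes alike, so the distance from this median, 3.58 for the alpha pair and 4.37 for the beta pair on the log2 scale, is the same under each of them by construction. Of 7570 nuclear protein-coding genes with a mean of at least 100 counts, 22 had a higher log2 ratio than the alpha pair and 19 a higher one than the beta pair.

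**Figure D2:**
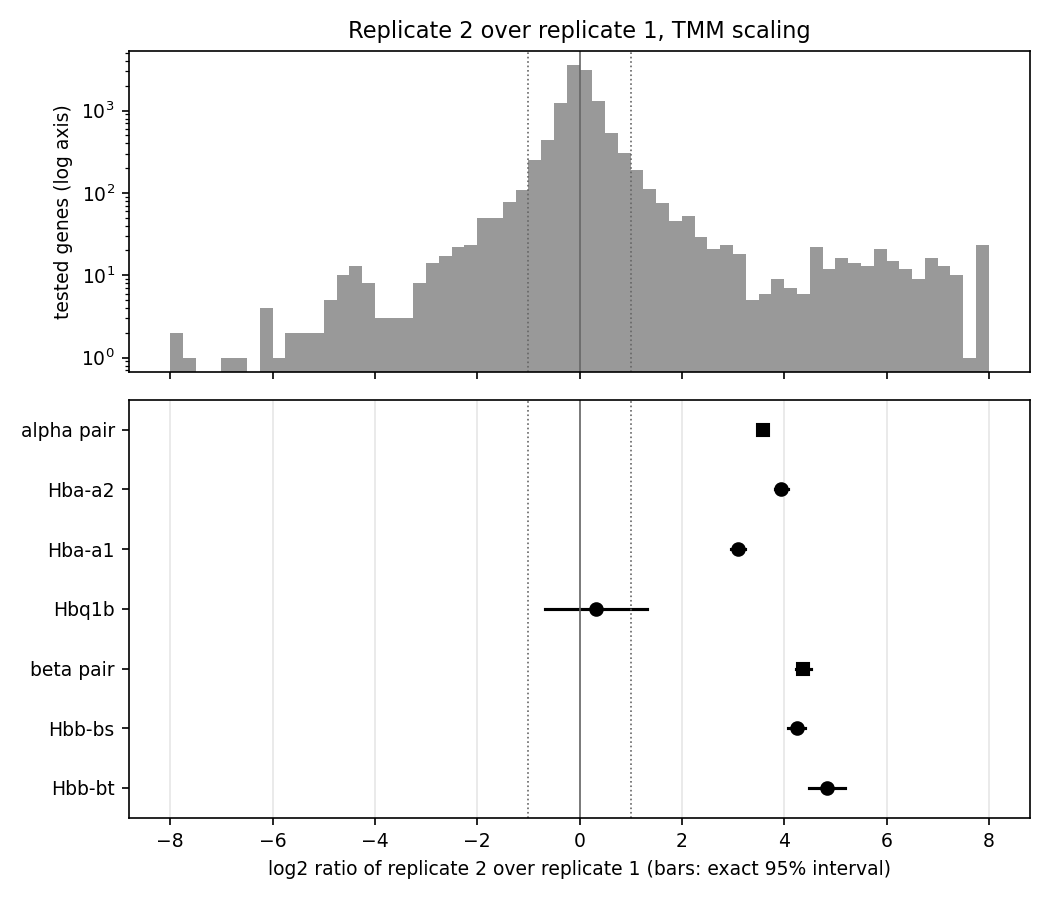
Log2 ratio of replicate 2 over replicate 1 after TMM scaling, above as the number of tested genes per bin (log axis, values past 8 placed in the outer bins) and below for the members tested and the adult pairs, with exact 95% intervals as bars and the 2-fold limits dotted. The adult genes lie between 3.09 and 4.82 and Hbq1b at 0.31, but with spike-in scaling the axis would shift by the median of -4.49 and the pairs would fall below 0.

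Ratios between genes of one library do not depend on how the libraries are scaled, and they separated the adult alpha genes from their neighbours. The alpha pair stood at 562 times the TPM of Hbq1b, which lies between the adult genes, in replicate 2 and at 55.1 times in replicate 1 (odds ratio of the counts 9.61, 95% interval 4.77 to 19.2, two-sided Fisher's exact test adjusted p = 5.18e-10 over 6 comparisons). Against Nprl3, the widely expressed gene whose introns hold the alpha-globin enhancers, the alpha pair stood at 53.8 times its TPM in replicate 2 and at 5.52 times in replicate 1 (odds ratio 12.2, 10.7 to 14.0, exact test adjusted p = 5.42e-278). Against Mpg, a DNA repair gene, it stood at 295 and 36.5 times in replicates 2 and 1 (odds ratio 6.89, 5.21 to 9.08, exact test adjusted p = 3.37e-36). All 3 ratios were several times greater in replicate 2, and these tests too cover counting error only. Adult globin genes together made 0.236% of nuclear protein-coding counts in replicate 2 (0.233 to 0.240, an exact Clopper-Pearson interval at 95%), against 0.0167% in replicate 1 (0.0159 to 0.0176).

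Few of the genes around the clusters had enough counts for a test, 4 of 7 at the alpha cluster and 0 of 16 at the beta cluster, and none of those 4 was called higher in replicate 2 (5.08% of all genes tested were). Within 100 kb of the alpha cluster, which spans 24.5 kb, 7 genes that are no members were annotated. Nprl3 had 522 counts in replicate 2, against 599 in replicate 1, with a ratio of 0.98 (0.87 to 1.10), and Mpg had 144 and 93, a ratio of 1.74 (1.33 to 2.28) that missed the 2-fold limit. Snrnp25, a spliceosome gene, had 25 and 45 counts and was not called (0.62, 0.37 to 1.04). Il9r, a cytokine receptor gene at the far side of the window, was called higher in replicate 1, with 17 counts in replicate 2 and 40 in replicate 1 (0.48, 0.25 to 0.86, exact binomial adjusted p = 0.037). Rhbdf1 had 3 counts in each library, and Gm12109 and Sh3pxd2b were at 0. These directions are those of TMM scaling, and with spike-in scaling 11609 of all genes tested were called higher in replicate 1. Around the beta cluster, which spans 40.7 kb, all 12 olfactory receptor genes measured were at 0 in both libraries, as were the pseudogenes Hbb-bh3, Hbb-bh0 and Gm15115. Only the pseudogene Dnajc19-ps had counts there outside the members, 4.14 in replicate 2 and 0 in replicate 1.

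**Figure D3:**
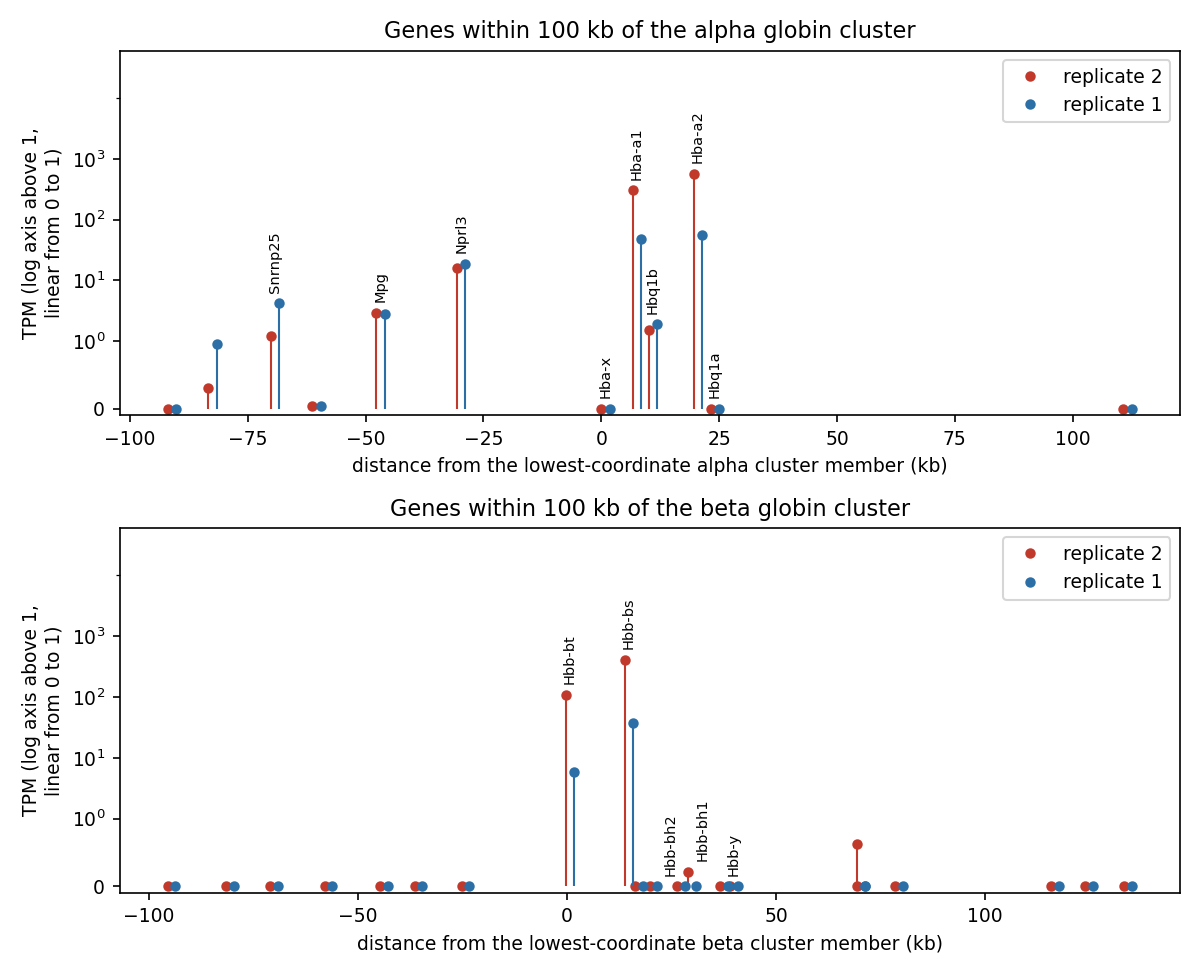
TPM of the annotated genes within 100 kb of the alpha cluster (upper panel) and the beta cluster (lower panel) by distance in kb of a gene's middle from the member with the lowest coordinate, with replicate 2 in red and replicate 1 in blue (points set slightly apart; log axis above 1 TPM, linear below). The adult genes stand above all others in replicate 2, Nprl3 has 16.2 and 18.8 TPM in replicates 2 and 1, and the olfactory receptor genes lie at 0.

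Beta globin made up a greater part of the adult globin reads of replicate 2, by more than counting error. Per length, the beta pair had 0.593 times the TPM of the alpha pair in replicate 2 and 0.411 times in replicate 1, so that alpha exceeded beta in both libraries. In counts the ratio was 0.618 in replicate 2 and 0.356 in replicate 1, an odds ratio of 1.74 (1.54 to 1.97, two-sided Fisher's exact test adjusted p = 9.32e-20 over 6 comparisons). Set against the same alpha counts, Hbb-bs had an odds ratio of 1.58 and Hbb-bt one of 2.37. These tests compare the reads of single libraries, and whether the ratio differs by more than replicates of the line do could not be tested, with a coefficient of variation of 26.2% between the libraries over all genes tested. As a share of adult globin TPM, Hba-a2 had 41.0% in replicate 2 and 38.2% in replicate 1, Hba-a1 21.8% and 32.7%, Hbb-bs 29.4% and 25.2%, and Hbb-bt 7.83% and 3.96%.

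**Figure D4:**
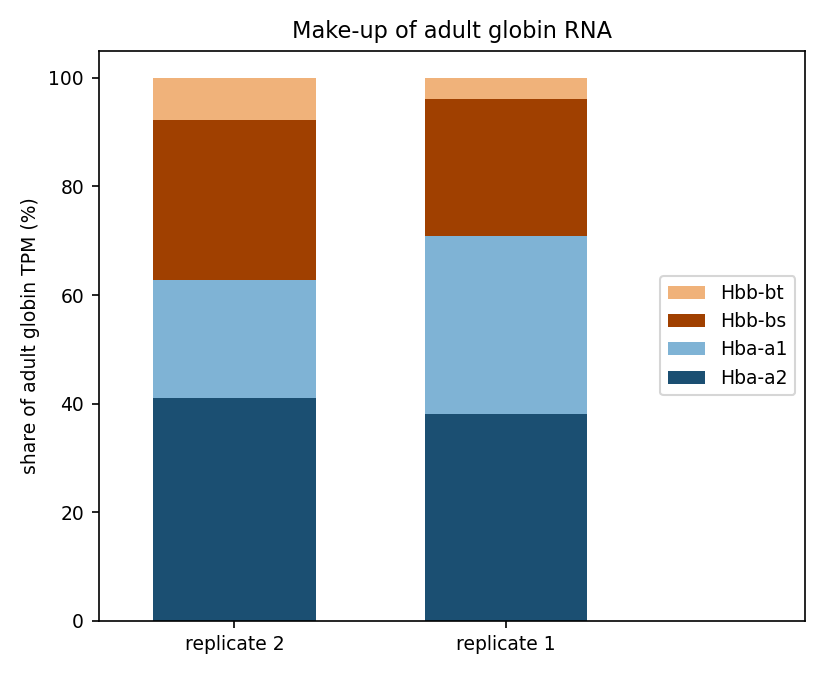
Share of the summed TPM of the 4 adult globin genes held by each gene (%) in replicate 2 (left) and replicate 1 (right). The beta genes, at the top of the bars, hold 37.2% in replicate 2 and 29.1% in replicate 1, and Hba-a1 holds 21.8% and 32.7%.

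The division of reads within each pair also differed. Hba-a1 held 35.8% of the alpha pair's counts in replicate 2 and 50.2% in replicate 1 (odds ratio of Hba-a1 over Hba-a2 0.554, 0.487 to 0.630, Fisher's exact test adjusted p = 1.75e-19). Hbb-bs held 73.3% of the beta pair's counts in replicate 2 and 80.5% in replicate 1 (odds ratio 0.666, 0.506 to 0.868, Fisher's exact test adjusted p = 0.00206). Fisher's test takes each estimated count as a read seen, while the assignment itself carried a deposited posterior SD of 0.855 and 2.54 percentage points for the share of Hba-a1 in replicates 2 and 1, and of 1.04 and 3.52 points for that of Hbb-bs. The difference between the libraries was -14.4 points for Hba-a1 and -7.17 points for Hbb-bs (replicate 2 minus replicate 1), so that the first was several times these SDs and the other was nearer to them.

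At the level of transcripts, the libraries differed in which models took the reads. The 699-nt coding transcript of Hba-a1 had 118 TPM in replicate 2 and 32.0 TPM in replicate 1, while its 494-nt transcript, annotated as a retained intron, had 185 TPM and 16.1 TPM. The retained-intron model thus took 60.9% of the gene's TPM in replicate 2 and 33.4% in replicate 1. Hba-a2 has a retained-intron model of the same length, which was at 0 in both libraries, and all of its reads were on the 554-nt coding transcript. The nearly equal sequences of these models leave few stretches to tell them apart: 11.2% of the stretches of 50 nt in the 494-nt transcript of Hba-a1 were found in no other globin gene.

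Hbb-bs was divided among 3 transcripts, and the longest separated the libraries most. The 778-nt transcript had 69.85 TPM from 1344 counts in replicate 2 and 0.30 TPM from 4.21 counts in replicate 1, or 17.1% and 0.81% of the gene's TPM. The credibility intervals of its level, 59.9 to 77.6 TPM in replicate 2 and 0.015 to 1.34 TPM in replicate 1, lay far apart. The 549-nt transcript had 220 and 22.9 TPM in replicates 2 and 1 and remained the main one, with 54.0% and 62.0% of the gene's TPM. The 407-nt coding transcript, which begins in the promoter window shown for Hbb-bs, had 118 and 13.7 TPM. Hbb-bt has 1 transcript in the tables. In GENCODE M21 the models behind the 778-nt and 549-nt transcripts have other lengths, 628 nt and 344 nt, and the 344-nt model is annotated as a retained intron, so no type is given here for the deposited ones. These are model-based estimates, and no test was made of single transcripts.

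**Figure D5:**
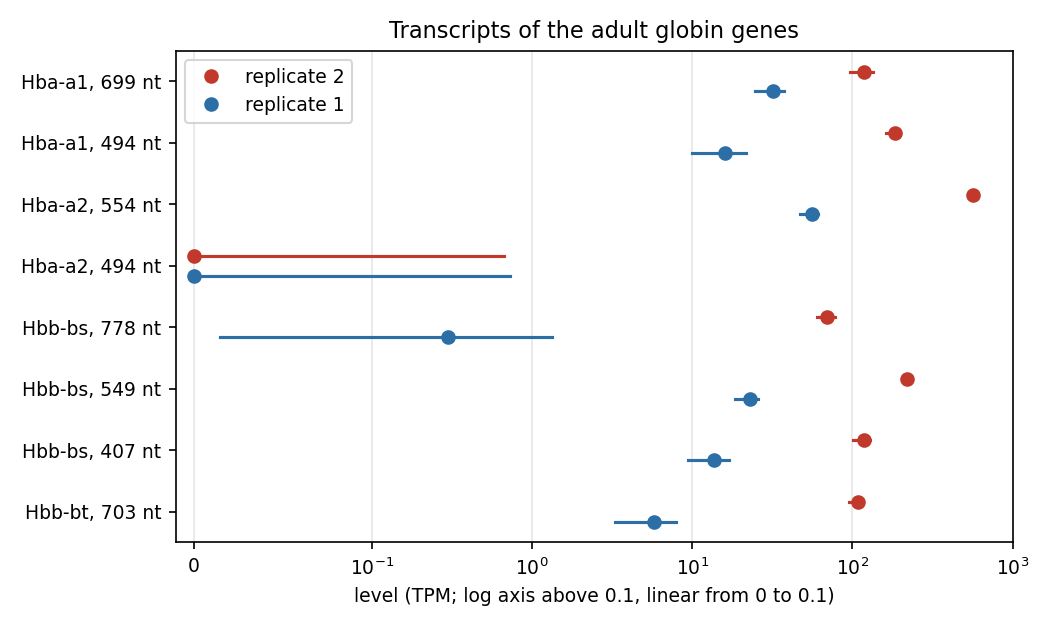
TPM of each annotated transcript of the adult globin genes, named by gene and length, in replicate 2 (red, upper point) and replicate 1 (blue, lower point), with deposited credibility intervals as bars (log axis above 0.1 TPM, linear below). The 494-nt model of Hba-a1 has 185 and 16.1 TPM in replicates 2 and 1, that of Hba-a2 is at 0, and the 778-nt transcript of Hbb-bs has 69.85 and 0.30 TPM.

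Among the 9 enzymes of haem synthesis, which supply the group that globin binds, 3 were called higher in replicate 2 and 0 in replicate 1, and all 9 were detected. Over all genes tested the shares called were 5.08% and 2.22%, and these shares are the background of the counts in the next paragraphs as well. Ratios here and below are those of counts after TMM scaling and take no account of transcript length, which TPM does. Spike-in scaling multiplies each ratio by 0.0443, which takes every gene called higher in replicate 2 in these lists below 1 except Slc4a1 (4.49). Alas2, the erythroid first enzyme of the pathway, had 17.6 TPM in replicate 2 and 1.87 TPM in replicate 1, a ratio of 8.29 (6.26 to 11.2). Ppox had 22.5 and 9.53 TPM (ratio 3.98) and Uros 4.53 and 3.95 TPM (ratio 2.32). No call was made from TPM, in which Uros differed less than in counts. Alas1, the housekeeping form of the first enzyme, had 5.93 and 10.4 TPM, a ratio of 0.80 that was within 2-fold. Cpox (252 ± 95.2 TPM, SD, n = 2) and Fech (76.1 ± 17.5 TPM), which act near the end of the pathway, were the highest of the list with ratios of 0.90 and 1.12. The median log2 ratio of the list was 0.64, against 0.00 over all genes tested.

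Of 9 measured genes that assemble or protect haemoglobin, 2 were called higher in replicate 2 and 0 in replicate 1, beside 5.08% and 2.22% of all genes tested, with a median log2 ratio of 0.42. They were Bpgm and Ube2o. Bpgm, which makes the bisphosphoglycerate that lowers oxygen affinity, had 115 and 45 counts in replicates 2 and 1 (ratio 2.86). In TPM Bpgm was not higher in replicate 2 (1.95, against 2.16 in replicate 1). The median TPM ratio of replicate 2 over replicate 1 was 0.646 over genes tested, and the call of Bpgm rests on counts. Ube2o, a ubiquitin enzyme of red cell maturation, had 429 and 180 counts (ratio 2.67) and 5.61 and 1.93 TPM. Gpx1, a glutathione peroxidase, was highest at 286 ± 81.7 TPM (SD, n = 2) with a ratio of 0.94, and Prdx2, a peroxiredoxin, had a ratio of 1.37. Ahsp, the chaperone of free alpha chains, was not analysed here.

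Of 20 regulators of globin genes, all detected, 2 were called higher in replicate 2 and 0 in replicate 1. Of all genes tested, 5.08% and 2.22% were, and so few calls cannot be read as a difference from these shares. The median log2 ratio of the list was 0.09. Sox6, which represses the mouse embryonic epsilon-type gene, had 8.31 TPM in replicate 2 and 1.68 TPM in replicate 1 (ratio 7.18, 6.19 to 8.36). Mafk, a small MAF partner of NF-E2, had 1.96 and 1.38 TPM (ratio 2.23, 1.69 to 2.95). Klf1, the main CACCC-binding activator of adult beta globin, had 10.03 and 14.57 TPM and a ratio of 1.06 (0.93 to 1.22). Gata1 had a ratio of 0.91 (0.82 to 1.01) and Gata2 one of 0.87 (0.82 to 0.91), neither past the 2-fold limit. Bcl11a, a repressor of embryonic globin genes, had 12.5 and 21.3 TPM and a ratio of 0.94, and Myb, a factor of progenitors, was the highest of the list at 63.1 ± 23.3 TPM (SD, n = 2) with a ratio of 0.94.

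Globins outside the clusters were at or near 0. Myoglobin (Mb), cytoglobin (Cygb) and androglobin (Adgb) had 0 counts in both libraries, and neuroglobin (Ngb) had 0 in replicate 2 and 1 in replicate 1. The 3 measured pseudogenes Hba-ps4, Hbb-bh3 and Hbb-bh0 were at 0.

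Of the erythroid markers, 1 of 6 was called higher in replicate 2 and 0 in replicate 1, beside 5.08% and 2.22% of all genes tested. Slc4a1, the band 3 anion exchanger of the mature red cell membrane, had 79.9 TPM in replicate 2 and 1.22 TPM in replicate 1 (ratio 101, 84.2 to 123). Epor, Tfrc, Klf1 and Rhag had ratios from 1.02 to 1.32 and Kit, Gata2 and Myb, the progenitor markers, from 0.87 to 0.98. Among markers of other cells, Gp1ba of megakaryocytes (10 and 32 counts in replicates 2 and 1) and Cd68 of macrophages (1 and 17) were called higher in replicate 1, and Adgre1 of macrophages (15 and 1) higher in replicate 2. Ly6g, Cd3e, Cd79a, Col1a1 and Col1a2 were at 0 in both libraries. The part of any of these cells in the globin difference was not tested.

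The genes nearest to the adult pairs in their log2 ratio over these 2 libraries after TMM scaling were taken from 7570 nuclear protein-coding genes with a mean of at least 100 counts. Among those nearest to the alpha pair were Fcho1 (ratio 12.9, 8.54 to 20.2), Slc6a9, the glycine transporter GLYT1 (14.1, 9.85 to 20.7), and Ces2g (9.39, 7.48 to 11.9). Nearest to the beta pair were Rhd, the Rh blood group protein (21.4, 13.7 to 35.4), Gm867 (18.2, 10.2 to 35.9), Gas2l3 (31.2, 14.9 to 78.7) and Fn3k, which removes fructose from glycated proteins (30.7, 17.7 to 58.2). Likeness here rests on 1 ratio of a pair of libraries. With spike-in scaling Gas2l3 (1.38) and Fn3k (1.36) stayed above 1 and the others named fell below it. With levels of 1.00 to 9.34 TPM in replicate 2, the genes named here were far below the adult pairs.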

How the data were processed

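Total RNA of the G1E line was sequenced in 2 biological replicates. Per the file headers, the authors deposited for each gene and transcript an estimated count (expected counts, not normalised, with shared reads divided by a model) and a posterior mean count with its SD. They also deposited TPM (per effective length, at a common sum) with other columns of credibility bounds, and FPKM, per the file headers. How much of a gene's TPM each transcript holds was deposited as a percent. The submitters' file records name mm10 and GENCODE M4, and neither aligner nor quantifier is given in the sources used here.

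GENCODE M21 (GRCm38) gave names, types and positions, matched on identifiers without version. Promoters came from RefSeq (GRCm38.p6), found for 9 of 10 members. Estimated counts were rounded to whole numbers. Because the labels give 1 group, the libraries were compared with each other: each gene was put to an exact binomial test (two-sided) if it had at least 10 counts over both libraries, against TMM effective sizes (edgeR 4.0.16, R 4.3.3), with Benjamini-Hochberg adjustment over all 11902 genes tested. Ratios have exact 95% Clopper-Pearson intervals. Log2 ratios used a prior of 0.5 counts. In the test of the pairs their sums replaced the single genes. Compositions were tested with Fisher's exact test over 6 comparisons. Alternatives were DESeq2 1.42.0 size factors, other totals, filters, limits, estimates and a negative binomial exact test at a common dispersion estimated with an intercept only. The comparison was checked on counts simulated with counting error alone, which is the model of the exact binomial test. That check does not cover variation between libraries beyond counting error. SciPy 1.17.1, pandas 2.3.3, NumPy 2.4.6, Biopython 1.88 and matplotlib 3.10.9 ran under Python 3.11.15.

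Spike-in entries (97) and entries named by a number (26248, with 7 counts in replicate 2 and 3 in replicate 1) stayed out of the tests. Named were the members, called genes of the lists, the highest and lowest of each list as far as space allowed, all neighbours within 100 kb and 4 genes nearest to each pair in ratio. A few genes that this rule or the marker lists name are not reported here. The members and gene lists were chosen with earlier results of these data known. Replicate 2 had 40597614 estimated counts in all, and replicate 1 had 31649878.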

Additional observations from a re-analysis of the deposited data

How the results depend on the processing

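The direction of the adult ratios depended on the scaling to spike-in transcripts and on no other alternative tried. With the spike-in total the ratio of replicate 2 over replicate 1 became 0.530 for the alpha pair and 0.920 for the beta pair, 0.378 for Hba-a1, 0.683 for Hba-a2, 0.838 for Hbb-bs and 0.0552 for Hbq1b, while Hbb-bt stayed above 1 at 1.26 but was no longer called. The count of members called was then 0 higher in replicate 2 and 2 higher in replicate 1, against 4 and 0 with TMM. Spike-in scaling rests on 514 counts in replicate 1, and the cause was not tested. With total counts the ratios were 8.32 and 14.5. A TPM ratio scaled by the median gene gave 12.95 for the alpha pair and 18.7 for the beta pair, values with no test, and TPM gave an odds ratio of 1.44 for beta over alpha. Leaving out a library is possible for levels only: the alpha pair ranged from 104 to 871 TPM and the beta pair from 42.8 to 516 TPM. No paired analysis was possible because the labels give 1 group. Over all genes, the negative binomial test called 263 higher in replicate 2 and 33 higher in replicate 1, total-count scaling 395 and 1021, spike-in scaling 36 and 11609, a 4-fold limit 364 and 145, no size limit 2045 and 1807, and a minimum of 50 counts 356 and 84, against 605 and 264. Of 171 alternative values of the members, 6 were reversed, 1 lost its call and 10 moved beyond the spread or interval. The other 154 include levels that moved widely within an SD larger than the mean, such as 155 CPM for the alpha pair at 488 TPM, and the uncalled ratio of Hbq1b, which was 0.866 with total counts and 1.25 with TMM. Many of the 154 were fixed by construction, so their number is no measure of robustness. The level in 1 library alone always lies within the SD of both. Count filters and size limits leave a ratio unchanged, rescaled FPKM repeats TPM, and sums of transcripts repeat the gene counts. Depth limits the 5 members under 10 counts, for which no ratio can be given.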
